A study of Mus musculus with 8 samples.

Results

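The p53 response genes described here are 40 of the 24279 genes in the deposited tables. They comprise p53 itself (Trp53) with 3 proteins that restrain it, 12 genes of cell cycle arrest, 13 of cell death, 5 of DNA repair and 6 of metabolism, redox balance and the cell membrane. They are fixed by gene symbol from general knowledge of the pathway, and no measured value enters the rule, but the list was drawn up with earlier results of these data known. All 40 were found in the tables. The measurements come from RNA sequencing of mouse embryonic stem cells kept for 6 days in medium lacking leukemia inhibitory factor (LIF), the cytokine that keeps such cells undifferentiated. There were 8 libraries, in 4 groups of 2, made from whole-cell RNA after removal of ribosomal RNA. The study asked whether gene silencing by microRNAs inside the nucleus, carried out by Argonaute proteins, is needed when stem cells differentiate.

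The noDox group is labelled as cells in which Argonaute 1 to 4 are knocked out (AGO1-4-/-). The DOX group is labelled as the same knockout in which AGO2 is the sole Argonaute, made from a doxycycline-inducible transgene carrying HA and Flag tags. NLS is labelled as the knockout with AGO2 fused to a nuclear localization signal as its sole Argonaute, and E14 is labelled as wild type. All groups, noDox and E14 included, carry the same protocol text of daily doxycycline at 2.5 µg/ml, the same description of an inducible AGO2 line and the same passage range, 8 to 15. The labels do not say whether a line was 1 clone, or whether the 2 libraries of a group came from separate cultures, so the p-values may measure technical spread.

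The tables named for DOX and for E14 were identical in all 24279 lines. Their values are therefore given as DOX/E14, a group whose label is not settled. The Ago1 level was 0.0159 RPKM in noDox, against 16.7 in DOX/E14 and 0.861 in NLS, and the DOX/E14 level goes against a label of cells with AGO2 alone. Ago3 RNA was at 7.56, 3.001 and 14.5 RPKM in noDox, DOX/E14 and NLS, although noDox is labelled as a knockout of all 4 genes and NLS as holding AGO2 alone. RPKM counts reads per kilobase of transcript, scaled to sequencing depth, and each group has a single value that stands for both of its libraries. Ago2 RNA was at 26.1, 32.6 and 35.7 RPKM in the same order. These gene-level values of the Argonautes do not separate a deleted part of the gene or a transgene from the rest. The groups also differed in RNA of the Y-linked gene Ddx3y, which was listed at 0 RPKM in noDox and stood at 11.1 RPKM in DOX/E14 and 0.311 RPKM in NLS. All 10 markers of pluripotent cells were at 1 RPKM or more in every group, with summed levels of 4563 RPKM in noDox, against 1963 in DOX/E14 and 3752 in NLS. Dppa5a made up most of the gap between noDox and DOX/E14 (2555 RPKM in noDox, 645 in DOX/E14), and the markers did not move together there. Dppa5a fell, as did Nanog (431 and 69.3 RPKM), Sox2 (184 and 53.2 RPKM) and Zfp42 (254 and 107 RPKM). Esrrb (189 and 33.7 RPKM) and Fgf4 (139 and 47.4 RPKM) fell too. Utf1 (116 and 207 RPKM) and Sall4 (89.5 and 128 RPKM) rose. Pou5f1 (501 and 542 RPKM) and Tdgf1 (104 and 131 RPKM) did not pass. Summed markers of other cells were lower in every group, given here in the order noDox, DOX/E14 and NLS. They were at 1.29, 12.7 and 3.51 RPKM for 9 fibroblast genes. For 8 genes of extraembryonic endoderm they were at 2.69, 5.41 and 3.43 RPKM, and for 7 trophoblast genes at 5.19, 19.2 and 10.1. The 7 neural genes were at 30.8, 40.2 and 48.8 RPKM, with Tubb3 alone at 28.9, 30.8 and 45.6. Among these, Afp of endoderm and Lum of fibroblasts were listed at 0 in every group. The part of these cell type markers and of the Y-linked difference in the results below was not tested. In RNA from whole cultures, fewer cells of a type and less RNA per cell cannot be told apart.

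The p53 protein is a transcription factor that is made continuously and destroyed continuously. Mdm2, a ubiquitin ligase, marks it for destruction, and Mdm4 blocks its activity. DNA damage and other stresses free p53 from both, and it then switches on genes that halt the cell cycle, repair DNA, change metabolism or start cell death. Mdm2 is itself a p53 target, which closes a feedback loop. Mouse embryonic stem cells are known for abundant p53 and for a short G1 phase with a weak arrest at its end.

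Against noDox, the p53 response genes moved in both directions in DOX/E14 and in 1 direction in NLS. A gene is said here to have risen or fallen where Cuffdiff's q was below 0.05 in the authors' deposited table, and the error of a log2 fold is a standard error (SE) worked back from the deposited test statistic. Of the 40 members 38 were tested in DOX/E14, of which 12 rose, 15 fell and 11 passed in neither direction. That is 71.1% called, beside 55.5% of all 12382 tested genes, where 27.2% rose and 28.3% fell. The members' median log2 fold was −0.29, beside 0.0075 over all tested genes.

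For NLS there were 39 tested members, of which 15 rose, 0 fell and 24 did not pass Cuffdiff's test. The share called was 38.5%, against 8.36% of all 12936 tested genes, where 3.97% rose and 4.39% fell. At an unadjusted p under 0.05, 19 members were higher and 5 were lower in NLS. Their median log2 fold was 0.56, beside −0.0077 over all tested genes. Fas was tested in neither table and Dram1 only in that of NLS, so these counts leave out 1 or both of them.

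The tables share the noDox libraries, so calls in one are not independent of calls in the other. Set side by side, 9 members were higher in both (Mdm2, Gadd45a, Gadd45g, Plk2, Plk3, Psrc1, Zmat3, Perp and Aen). Btg2, Eda2r and Trp53inp1 were lower in DOX/E14 and higher in NLS. Ccng1, Apaf1 and Ercc5 passed, upward, in the NLS table alone. Such pairs of calls are not given over all genes here, so these counts do not set the members apart from other genes. Each table was scaled on its own, and a noDox level in the NLS table was 1.03 times its level in the first (median). Levels of noDox below are those of the first table unless the NLS table is named, whereas NLS folds use the noDox values of the NLS table.

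NLS and DOX/E14 were compared with each other by a z test on the difference between their log2 folds, with Benjamini-Hochberg adjustment over 11905 genes. Of 38 members tested, 9 were higher in NLS and 0 were lower (23.7%), where the test called 13.0% of all genes, 9.77% as higher in NLS and 3.18% as lower. At an unadjusted p under 0.05 the counts were 14 and 0. The adjusted p-values of the 9, computed from the authors' statistics, were p = 6.4e-10 for Ephx1, 5.52e-06 for Mdm4, 0.000239 for Btg2, 0.000804 for Trp53inp1, 0.0081 for Eda2r, 0.013 for Tigar, 0.0284 for Pmaip1, 0.0298 for Apaf1 and 0.0299 for Rrm2b. Nearest above the threshold of 0.05 were Polk, Ccng1, Sesn1, Cdkn1a and Mdm2, with p = 0.0559, 0.0655, 0.0869, 0.0998 and 0.157 from the authors' statistics. The difference was positive in 32 of the 38, with a median of 0.49 on the log2 scale. Over all genes tested 50.6% were positive and the median was 0.014.

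**Figure D1:**
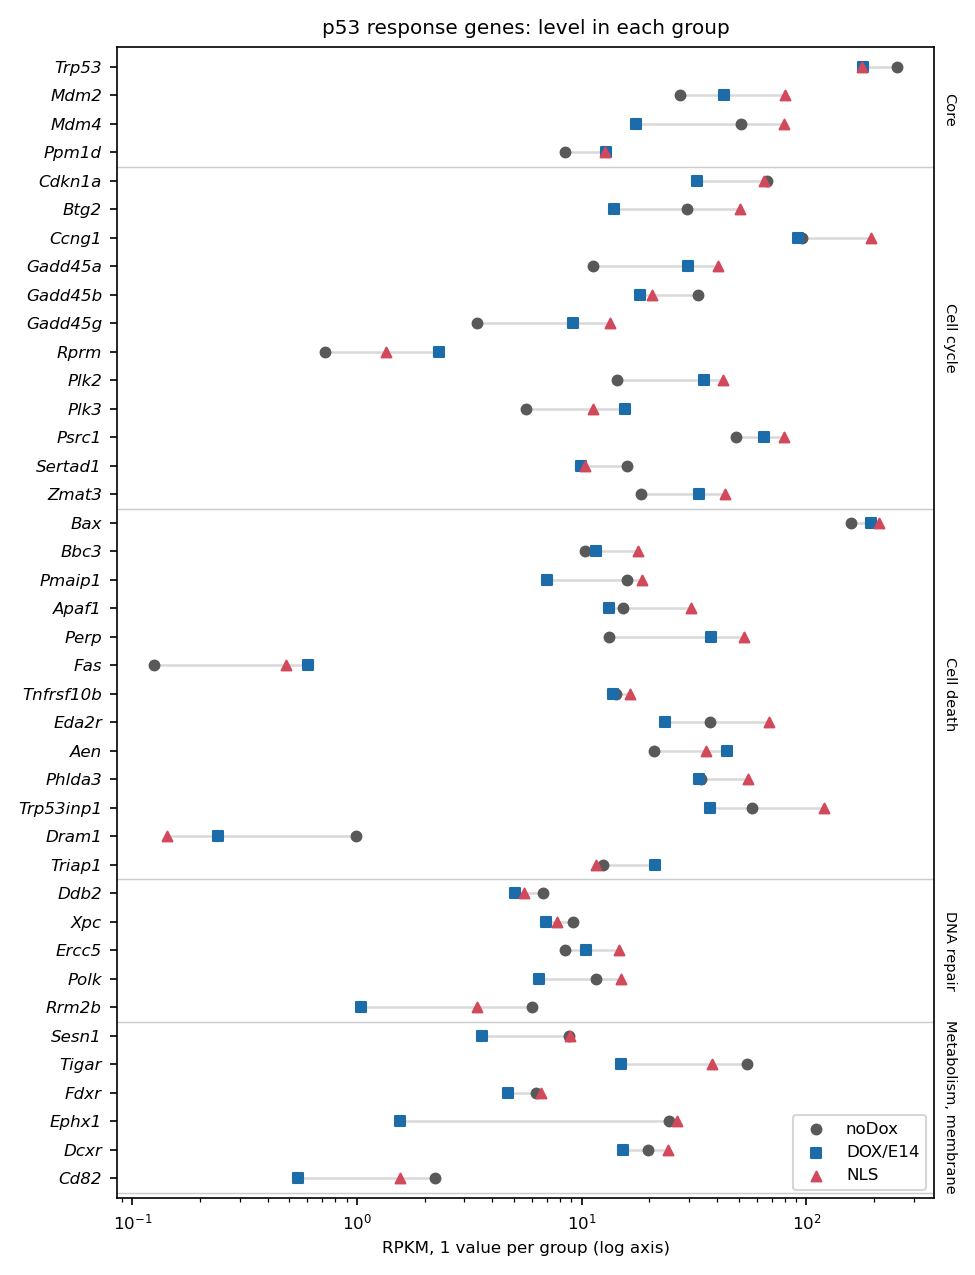
RPKM of each of the 40 p53 response genes in noDox (grey circles, first table), DOX/E14 (blue squares) and NLS (red triangles), on a log axis, grouped by role and with 1 value per group and no error. Trp53, Bax and Ccng1 are the most abundant members, and the DOX/E14 square of Ephx1 at 1.56 RPKM lies far below the other 2 symbols of that gene.

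Among p53 and its regulators, Trp53 RNA was abundant and lower in both groups, while the transcripts of its restrainers moved separately. Trp53 (chromosome 11, 69580359 to 69591873, plus strand, GRCm38) stood at 254 RPKM in noDox, beside 178 in DOX/E14 and 177 in NLS. The NLS table gave noDox as 260.3 RPKM. DOX/E14 and NLS were nearly equal, and noDox was the highest. Trp53 fell in DOX/E14 by 0.51 on the log2 scale (SE 0.26, with q = 0.00853 in the authors' deposited table). In NLS the log2 fold was −0.55 (SE 0.30) but did not pass (q = 0.0754 in the authors' deposited table), and the difference between the groups was −0.04 (SE 0.40, adjusted p = 0.975).

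Mdm2, the ubiquitin ligase and p53 target (chromosome 10, 117688875 to 117710758, minus strand), was at 27.4 RPKM in noDox, against 43.2 in DOX/E14 and 80.3 in NLS. It rose in both tables, with log2 folds of 0.66 (SE 0.26) and 1.51 (SE 0.31) and q of 0.00114 and 0.00191 in the authors' deposited table. NLS had the highest level, yet its difference from DOX/E14 of 0.86 (SE 0.40) did not pass.

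Mdm4, the relative of Mdm2 that blocks p53 activity (chromosome 1, 132959484 to 133030561, minus strand), was at 51.1 RPKM in noDox, beside 17.5 in DOX/E14 and 79.6 in NLS. DOX/E14 was thus low and NLS high around noDox. It fell by 1.55 in DOX/E14 (SE 0.26, with q = 0.00017 in the authors' deposited table). That is the lowest q of that comparison, and other members, such as Cdkn1a and Ephx1, share it. The NLS log2 fold of 0.60 (SE 0.31) did not pass (q = 0.0614 in the authors' deposited table), while the difference between the groups of 2.15 (SE 0.40) did. Ppm1d encodes the phosphatase Wip1, which switches the damage signal off, and was at 8.44, 12.9 and 12.7 RPKM in noDox, DOX/E14 and NLS. It rose in DOX/E14 (log2 fold 0.61, SE 0.30), and the near-equal NLS level gave a log2 fold of 0.56 (SE 0.37) that did not pass.

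**Figure D2:**
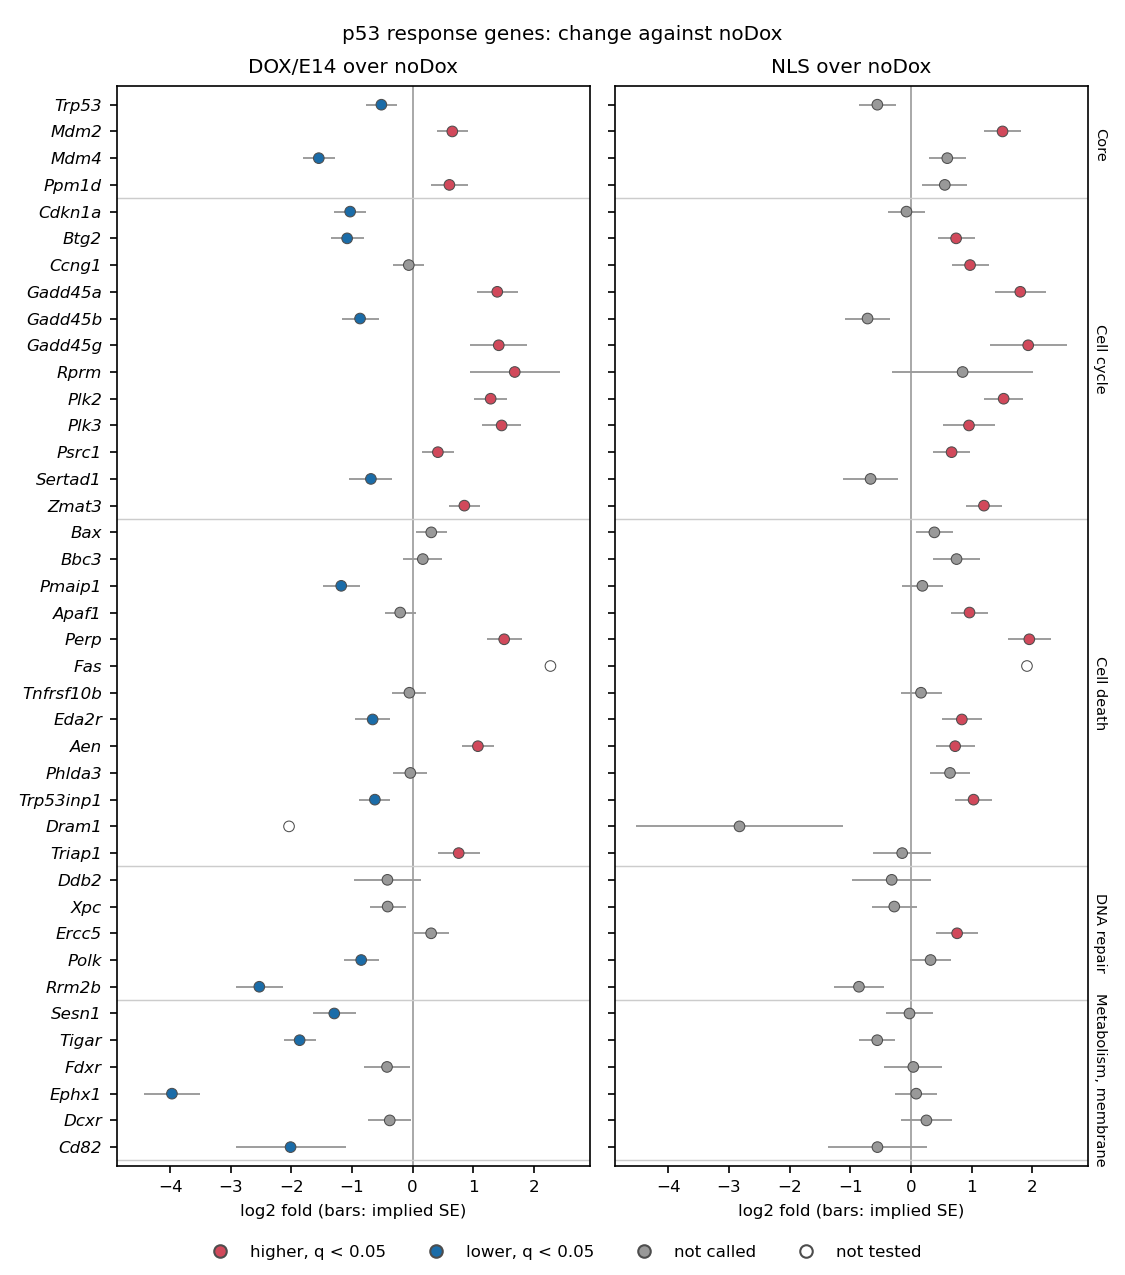
Log2 fold of each member over noDox in DOX/E14 (left) and NLS (right), with bars of 1 implied SE; red points rose and blue points fell at q below 0.05, grey points did not pass and open points were not tested. Blue points number 15 on the left and 0 on the right, where 15 points are red.

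Of 12 genes of cell cycle arrest, 7 rose and 4 fell in DOX/E14, and 8 rose and 0 fell in NLS, where 2 were lower at an unadjusted p under 0.05. The shares called were 91.7% in DOX/E14 and 66.7% in NLS, beside 55.5% and 8.36% of all tested genes. Cdkn1a encodes p21, the inhibitor of cyclin-dependent kinases through which p53 halts the cycle (chromosome 17, 29090976 to 29100727, plus strand). Its level was 66.5 RPKM in noDox, against 32.6 in DOX/E14 and 64.8 in NLS, beside 68.2 for noDox in the NLS table. DOX/E14 alone was low. Cdkn1a fell by 1.03 there (SE 0.26, with q = 0.00017 in the authors' deposited table), and the NLS log2 fold was −0.07 (SE 0.30, with q = 0.898 in the authors' deposited table). The difference of 0.96 (SE 0.40) between NLS and DOX/E14 did not pass.

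Cdkn1a and Ccng1 are shown in sequence because they were the only 2 members with a p53 element in the promoter window searched. The window ran from 250 bases before to 50 after each RefSeq start (GRCm38.p6), and the element was 20 letters of the p53 consensus, made of 2 abutting decamers, with C and G kept at positions 4 and 7 of each decamer and at most 2 other letters off. The consensus reads the same on both strands, so 1 search covers both. An element was found in 2 of 32 member genes with a promoter sequence (6.25%), against 106 of 27025 genes (0.392%). The stretch from Cdkn1a lies at chr17:29090908-29090967 on the plus strand, with an element 1 letter off the consensus that begins 51 bases before the start used. That of Ccng1 lies at chr11:40755442-40755501 on the minus strand, also 1 letter off, and begins 195 bases before the start. Capitals mark the element.
Cdkn1a: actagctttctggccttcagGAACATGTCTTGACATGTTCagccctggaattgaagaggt
Ccng1: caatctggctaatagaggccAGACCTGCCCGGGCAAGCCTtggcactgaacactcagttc
A match is a description of letters and not a shown binding site, and genes without one in this short window can hold elements elsewhere.

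Ccng1 encodes cyclin G1, which recruits a phosphatase to Mdm2 (chromosome 11, 40748552 to 40755311, minus strand). Ccng1 levels were 95.9 RPKM in noDox, beside 91.9 in DOX/E14 and 194 in NLS, so that NLS alone was high. It rose in NLS (log2 fold 0.98, SE 0.31, with q = 0.00191 in the authors' deposited table) and had a log2 fold of −0.06 (SE 0.26) in DOX/E14. The difference between the groups, 1.04 (SE 0.40), did not pass. Of the 2 genes with a promoter element, Cdkn1a was called only in DOX/E14, downward, and Ccng1 only in NLS, upward. Their differences between NLS and DOX/E14 were alike, at 0.96 (SE 0.40) for Cdkn1a and 1.04 (SE 0.40) for Ccng1. The part of the element in these levels was not tested.

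Btg2, an antiproliferative protein that recruits the machinery removing poly(A) tails (chromosome 1, 134075170 to 134079120, minus strand), was at 29.5 RPKM in noDox, against 13.97 in DOX/E14 and 50.7 in NLS. It fell by 1.08 in DOX/E14 (SE 0.27) and rose by 0.75 in NLS (SE 0.31, with q = 0.00975 in the authors' deposited table). The groups lay on opposite sides of noDox and differed by 1.82 (SE 0.41), which passed.

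The Gadd45 genes encode small stress proteins that act in DNA repair, kinase signalling and cell cycle arrest, and they did not move as a family. Gadd45a was at 11.2, 29.6 and 40.3 RPKM in noDox, DOX/E14 and NLS, and rose in both tables (log2 folds 1.40, SE 0.34, and 1.80, SE 0.42). Gadd45g was at 3.42, 9.18 and 13.4 RPKM and rose in both (1.42, SE 0.47, and 1.94, SE 0.63). Gadd45b went the other way, from 33.0 RPKM in noDox to 18.1 in DOX/E14, where it fell by 0.87 (SE 0.30), and 20.6 in NLS, where the log2 fold of −0.71 (SE 0.37) did not pass. Both NLS levels of the risen genes exceeded those of DOX/E14, but the differences of 0.41 (SE 0.54) and 0.51 (SE 0.79) did not pass.

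The Polo-like kinases Plk2 and Plk3 are stress-induced relatives of the mitotic kinase Plk1, and both rose. Plk2 was at 14.3 RPKM in noDox, beside 35.0 in DOX/E14 and 42.5 in NLS, with log2 folds of 1.29 (SE 0.27) and 1.53 (SE 0.33). Plk3 was at 5.64, 15.6 and 11.2 RPKM, with log2 folds of 1.47 (SE 0.33) and 0.96 (SE 0.42). Zmat3, an RNA-binding zinc-finger protein, rose from 18.3 RPKM in noDox to 33.1 in DOX/E14 and 43.3 in NLS (log2 folds 0.86, SE 0.26, and 1.21, SE 0.30). Psrc1, a microtubule-associated protein, rose less, from 48.6 to 64.9 and 79.4 RPKM (0.42, SE 0.26, and 0.67, SE 0.31).

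The remaining genes of this class were low or moved in 1 table. Rprm, known in human cells as a cause of arrest in G2, was at 0.722 RPKM in noDox, against 2.32 in DOX/E14 and 1.34 in NLS. It rose in DOX/E14 (log2 fold 1.69, SE 0.74, with q = 0.0153 in the authors' deposited table), and its NLS fold of 0.85 (SE 1.17) did not pass. Sertad1, a regulator of cyclin-dependent kinase 4 and of E2F factors, fell from 16.0 to 9.92 RPKM in DOX/E14 (−0.69, SE 0.35). Its NLS level of 10.3 RPKM gave a like log2 fold of −0.67 (SE 0.45) that did not pass.

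Of 13 genes of cell death, 3 rose and 3 fell among the 11 tested in DOX/E14, and 5 rose and 0 fell among the 12 tested in NLS, where 0 were lower at an unadjusted p under 0.05 as well. In DOX/E14 54.5% of those tested were called, near the 55.5% of all tested genes. In NLS the share called was 41.7%, beside 8.36% of all tested genes. Among 3 Bcl2-family genes through which p53 acts on the mitochondrion, Pmaip1 fell in DOX/E14, and the other calls did not pass in either table. Bax, a pore-forming member of the Bcl2 family, was at 157 RPKM in noDox, beside 195 in DOX/E14 and 211 in NLS. Its log2 folds (0.31, SE 0.26, and 0.39, SE 0.30) did not pass. Bbc3, which encodes the BH3-only protein Puma, was at 10.3, 11.6 and 17.8 RPKM, with log2 folds of 0.17 (SE 0.32) and 0.75 (SE 0.39) that did not pass (q = 0.544 and 0.0568 in the authors' deposited table). Pmaip1 encodes Noxa, another BH3-only protein, and was at 15.9 RPKM in noDox, against 7.02 in DOX/E14 and 18.6 in NLS. DOX/E14 alone was low, and Pmaip1 fell by 1.18 there (SE 0.31). NLS exceeded DOX/E14 by 1.37 (SE 0.46), which passed.

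Apaf1 builds the apoptosome that activates caspase 9 once cytochrome c has left the mitochondrion (chromosome 10, 90989311 to 91082770, minus strand). Its level was 15.2 RPKM in noDox, beside 13.2 in DOX/E14 and 30.6 in NLS, and NLS alone was high. Apaf1 rose in NLS (log2 fold 0.97, SE 0.30, with q = 0.00191 in the authors' deposited table) and had a log2 fold of −0.20 (SE 0.26) in DOX/E14. The difference of 1.17 (SE 0.40) passed.

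Trp53inp1, a nuclear stress protein that promotes phosphorylation of p53 and also acts in autophagy (chromosome 4, 11156431 to 11174379, plus strand), was at 57.1 RPKM in noDox, against 37.1 in DOX/E14 and 119.9 in NLS. It fell by 0.62 in DOX/E14 (SE 0.26, with q = 0.0025 in the authors' deposited table) and rose by 1.03 in NLS (SE 0.31, with q = 0.00191 in the authors' deposited table). NLS stood above DOX/E14 by 1.65 (SE 0.40), and the difference passed.

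Eda2r, the receptor for ectodysplasin A2, lies on the X chromosome (97333840 to 97377216, minus strand) and showed the same order. Its levels were 37.1 RPKM in noDox, beside 23.5 in DOX/E14 and 68.2 in NLS. It fell by 0.66 in DOX/E14 (SE 0.29) and rose by 0.84 in NLS (SE 0.33), and the difference of 1.50 (SE 0.43) passed.

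Perp and Aen rose in both groups. Perp, a tetraspan membrane protein of desmosomes and apoptosis, was at 13.2 RPKM in noDox, against 37.8 in DOX/E14 and 52.6 in NLS, with log2 folds of 1.51 (SE 0.29) and 1.95 (SE 0.35). Aen, an exonuclease that degrades DNA in apoptosis, was at 21.0, 44.4 and 35.8 RPKM, with log2 folds of 1.08 (SE 0.27) and 0.73 (SE 0.32). Neither difference between NLS and DOX/E14 passed the z test (0.44, SE 0.45, and −0.35, SE 0.42). Triap1, a survival factor that in human cells restrains apoptosis, rose from 12.5 to 21.1 RPKM in DOX/E14 (0.76, SE 0.35, with q = 0.0051 in the authors' deposited table) and was at 11.6 RPKM in NLS, where it did not pass.

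The death receptors and the other members of this class did not pass where tested. Tnfrsf10b, the mouse receptor for the ligand TRAIL, was at 14.2 RPKM in noDox, beside 13.7 in DOX/E14 and 16.4 in NLS. Phlda3, a repressor of the kinase Akt, was at 34.1, 33.3 and 54.7 RPKM, and its NLS log2 fold of 0.65 (SE 0.33) did not pass (q = 0.0653 in the authors' deposited table). Fas, the receptor for Fas ligand, was at 0.124, 0.603 and 0.483 RPKM and was not tested. Dram1, a lysosomal protein of autophagy, was at 0.99, 0.241 and 0.143 RPKM and did not pass in the NLS table (log2 fold −2.83, SE 1.70).

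Of 5 genes of DNA repair, 0 rose and 2 fell in DOX/E14, and 1 rose and 0 fell in NLS by Cuffdiff's test. The 2 of 5 called in DOX/E14 are a smaller share than the 55.5% of all tested genes. In NLS 1 of 5 was called, beside 8.36% of all tested genes. At an unadjusted p under 0.05, 0 of the 5 were higher in DOX/E14 and 1, Rrm2b, was lower in NLS. Rrm2b, the p53-induced small subunit of ribonucleotide reductase, which supplies nucleotides for repair (chromosome 15, 37923952 to 37961318, minus strand), was at 6.01 RPKM in noDox, against 1.04 in DOX/E14 and 3.41 in NLS. Both groups were lower than noDox. Rrm2b fell by 2.53 in DOX/E14 (SE 0.39), while the NLS log2 fold of −0.86 (SE 0.41) did not pass (q = 0.0513 in the authors' deposited table). NLS exceeded DOX/E14 by 1.67 (SE 0.56), which passed.

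Polk, a polymerase that copies past damaged bases, was at 11.6 RPKM in noDox, beside 6.46 in DOX/E14 and 14.9 in NLS. It fell by 0.85 in DOX/E14 (SE 0.29), and the difference of 1.17 (SE 0.44) between NLS and DOX/E14 did not pass. Ercc5, the nuclease that cuts on the 3′ side of a lesion in nucleotide excision repair, was at 8.40, 10.4 and 14.6 RPKM and rose in NLS (0.76, SE 0.35, with q = 0.0305 in the authors' deposited table). The damage sensors of that pathway did not pass in either table. Ddb2 was at 6.70 RPKM in noDox, against 5.03 in DOX/E14 and 5.52 in NLS, and Xpc at 9.17, 6.90 and 7.78 RPKM.

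In the 6 genes of metabolism, redox balance and the membrane, 0 rose and 4 fell in DOX/E14, and the counts at an unadjusted p under 0.05 were the same. The share called there was 66.7%, beside 55.5% of all tested genes. In NLS none of the 6 passed Cuffdiff's test, where 8.36% of all tested genes did. At an unadjusted p under 0.05, 0 were higher and 1 was lower in NLS. The class medians were −1.58 for the DOX/E14 log2 folds and 0.0084 for those of NLS. Ephx1, the microsomal epoxide hydrolase (chromosome 1, 180976210 to 181020904, minus strand), was at 24.4 RPKM in noDox, beside 1.56 in DOX/E14 and 26.6 in NLS. The NLS table gave noDox as 25.0 RPKM, so noDox and NLS were close and DOX/E14 alone was low. Ephx1 fell by 3.97 in DOX/E14 (SE 0.47, with q = 0.00017 in the authors' deposited table), and the NLS log2 fold was 0.09 (SE 0.35). Its difference of 4.06 between NLS and DOX/E14 (SE 0.58) passed and was the largest among the 38 members tested.

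Tigar, a phosphatase that lowers the flow through glycolysis (chromosome 6, 127085116 to 127109557, minus strand), was at 54.2 RPKM in noDox, against 14.9 in DOX/E14 and 37.8 in NLS. It fell by 1.86 in DOX/E14 (SE 0.26), and the NLS log2 fold of −0.56 (SE 0.30) did not pass (q = 0.0771 in the authors' deposited table). The difference of 1.31 (SE 0.40) passed. Sesn1, a stress protein that restrains the growth kinase complex mTORC1, was at 8.79 RPKM in noDox, beside 3.59 in DOX/E14 and 8.88 in NLS. It fell by 1.29 in DOX/E14 (SE 0.35), and NLS exceeded DOX/E14 by 1.27 (SE 0.52), which did not pass.

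Cd82, a tetraspanin known as a suppressor of metastasis, was low throughout, at 2.21, 0.548 and 1.55 RPKM, and fell by 2.01 in DOX/E14 (SE 0.91). Fdxr, which passes electrons to mitochondrial cytochrome P450 enzymes, was at 6.29, 4.70 and 6.62 RPKM. Dcxr, a carbonyl and sugar reductase, was at 19.7, 15.2 and 24.1 RPKM. The last 2 did not pass in either table.

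**Figure D3:**
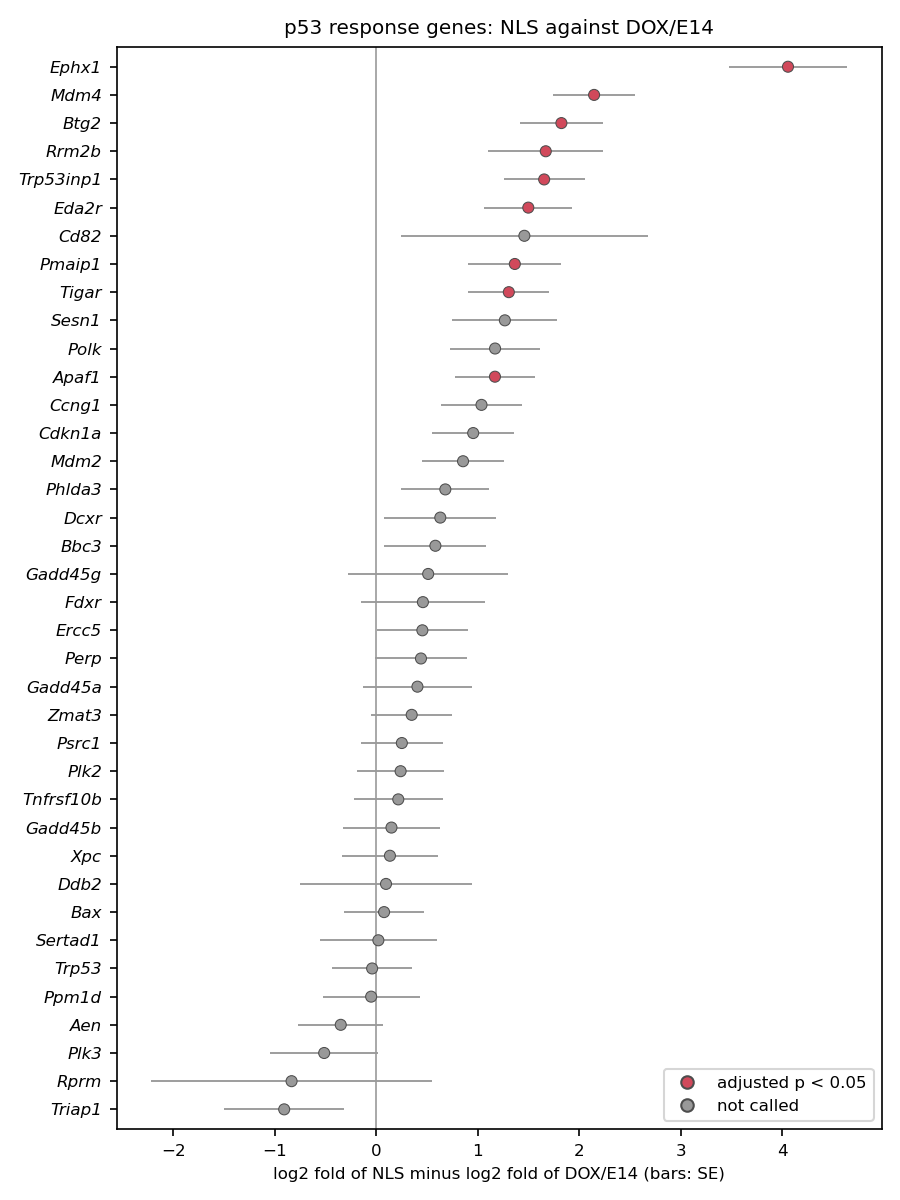
Log2 fold of NLS minus log2 fold of DOX/E14 for the 38 members tested, in order of size, with bars of 1 SE of the difference; red points have an adjusted p below 0.05. The 9 red points run from 1.17 (Apaf1) to 4.06 (Ephx1), and the lowest grey point is Triap1 at −0.91.

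Since Argonaute proteins act through microRNAs, the 3′ UTRs of the members were searched for the 7 letters that pair with bases 2 to 8 (the seed) of microRNAs known from p53 or stem cell biology. MicroRNAs of the miR-290 and miR-302 clusters are the dominant ones of mouse embryonic stem cells and are known there to repress Cdkn1a. The microRNA miR-34a is known to be induced by p53. The mature sequences (RefSeq, GRCm38.p6) follow with the seed in capitals, at chr7:3220691-3220712, chr3:127545275-127545297 and chr4:150068473-150068494, all on the plus strand.
mmu-miR-294-3p: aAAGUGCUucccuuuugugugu
mmu-miR-302b-3p: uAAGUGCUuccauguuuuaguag
mmu-miR-34a-5p: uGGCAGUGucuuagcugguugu
The first 2 share the seed AAGUGCU, as do miR-291a-3p, miR-295-3p and miR-302d-3p.

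The letters AGCACTT, which pair with that seed, were found on the transcript strand of the longest GENCODE M21 3′ UTR in 7 of 40 members (17.5%), against 3089 of 21039 genes (14.7%). Median 3′ UTR lengths were 882 bases in the members and 960 in all genes. Cdkn1a held 2 matches and Ccng1, Zmat3, Trp53inp1, Dram1, Polk and Rrm2b held at least 1. Matches of Cdkn1a (chr17:29099816-29099838 and chr17:29100488-29100510, plus strand), Trp53inp1 (chr4:11174214-11174236, plus strand), Polk (chr13:96481580-96481602, minus strand) and Rrm2b (chr15:37926861-37926883, minus strand) are shown because these were the carriers that fell in DOX/E14, with the 7 letters in capitals.
Cdkn1a first: tcagacctgaatAGCACTTtgga
Cdkn1a second: cgtgggtgtcaaAGCACTTagtg
Trp53inp1: aatgaacagcacAGCACTTtgcc
Polk: atcttacatataAGCACTTggtt
Rrm2b: ctttttgtcataAGCACTTaaga
Of the 6 carriers tested in DOX/E14, 4 fell and 1, Zmat3, rose, and of the 32 tested members without the letters 11 fell and 11 rose. In all genes 37.8% of 1971 tested carriers and 27.7% of 9259 others fell there, and 21.8% and 29.9% rose. In NLS 3 of 7 carriers (42.9%) and 12 of 32 tested members without the letters (37.5%) rose. By Cuffdiff's test 0 of either fell, with Rrm2b among the carriers lower at an unadjusted p under 0.05. Over all genes in NLS 3.92% of carriers rose and 4.94% fell, close to 4.16% and 4.66% of the others. The part of 3′ UTR length in these shares was not tested.

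The letters CACTGCC, which pair with the miR-34a seed, were in 5 of 40 members (12.5%: Mdm4, Bax, Aen, Rrm2b and Sesn1) and in 14.3% of all genes. Among these 5, 3 fell and 1 rose in DOX/E14, and of the 33 tested members without the letters 12 fell and 11 rose. In all genes 36.2% of carriers and 28.1% of the others fell there, and 25.6% and 29.1% rose. In NLS 1 of the 5 rose, as did 14 of 34 members without the letters. Over all genes in NLS 4.85% of carriers rose and 5.15% fell, close to 3.96% and 4.61% of the others. The locus Mir34a was listed at 0 RPKM in every group, and libraries of this kind are made from longer RNA and measure mature microRNAs poorly. Of 14 microRNA loci that p53 is known to bind, 12 were in the tables, of which 1 was tested in DOX/E14 and 2 in NLS. Of these none passed Cuffdiff's test and 0 had an unadjusted p under 0.05.

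Genes around p53 were counted from lists drawn up with earlier results of these data known, so their counts are a description. Of 26 tested regulators and relatives of p53, 5 rose and 6 fell in DOX/E14 (42.3%, below the 55.5% of all genes). The NLS counts were 1 rise and 0 falls (3.85%, below the 8.36% of all tested genes). At an unadjusted p under 0.05, 4 were higher and 3 lower in NLS. Cdkn2a, whose product Arf inhibits Mdm2, was at 21.2 RPKM in noDox, fell to 8.63 in DOX/E14 (log2 fold −1.29, SE 0.39) and was at 24.9 in NLS. The methyltransferase gene Setd7 rose to 12.5 from 6.40 RPKM, and Hipk2, a kinase that phosphorylates p53, fell to 4.63 from 8.44 RPKM in DOX/E14. Trp73, the p53 relative p73, was at 2.62, 2.49 and 6.79 RPKM and rose in NLS (1.34, SE 0.41, with q = 0.00191 in the authors' deposited table). Trp63 did not exceed 0.176 RPKM in any group and was left untested by Cuffdiff.

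The sensors of DNA damage that act before p53 rose in DOX/E14 in 8 of 19 cases and fell in 1, Brca1, with a median log2 fold of 0.38. The share called was 47.4%, below the 55.5% of all tested genes, and the share risen was 42.1%, beside 27.2%. Atrip, the partner of the kinase Atr, rose from 6.25 to 11.2 RPKM, Hus1 of the checkpoint clamp from 6.18 to 11.0 and the nuclease gene Mre11a from 17.9 to 29.3. In NLS 0 of the 19 passed Cuffdiff's test, where 8.36% of all tested genes did. At an unadjusted p under 0.05, 1 was higher and 0 were lower there, and the median log2 fold was 0.06. Among 8 ribosomal and nucleolar proteins that bind Mdm2, 4 rose and 0 fell in DOX/E14 (4 of 8 called, where 55.5% of all tested genes were), and at an unadjusted p under 0.05 5 were higher and 0 lower. Gnl3, the nucleolar protein nucleostemin, rose from 43.0 to 119 RPKM, Rps27l from 195 to 456 and the nucleolar chaperone gene Npm1 from 408 to 755. Of these 8, 0 passed in NLS, beside 8.36% of all tested genes, and 1 was higher at an unadjusted p under 0.05.

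A wider list of 65 further p53 targets, 64 of them in the tables, had 17 rises and 17 falls among 58 tested in DOX/E14 (58.6% called), near the 55.5% of all tested genes. In NLS it had 17 rises and 2 falls (Ulk1 and Pltp) among 61 tested, or 27.9% risen beside 3.97% of all genes. Trp53i11 was at 0.607 RPKM in noDox, against 5.07 in DOX/E14 and 8.07 in NLS, and rose in both (log2 folds 3.06, SE 0.56, and 3.69, SE 0.78). Zfp365, known in human cells as a protein of replication stress, was at 1.35, 6.82 and 9.72 RPKM and rose in both. Hspa4l, a chaperone gene, was at 1.24, 2.64 and 4.48 RPKM and also rose in both. Crip2, a LIM protein, rose from 6.21 RPKM to 60.4 in DOX/E14 and 20.7 in NLS. Klf4, a factor of the naive stem cell state as well as a p53 target, fell from 32.7 to 3.19 RPKM in DOX/E14 and rose to 51.6 RPKM in NLS. By the z test of NLS against DOX/E14, 12 of 58 were higher in NLS, Klf4 included, and 4 were lower, Crip2 included. That is 27.6% called and 20.7% higher in NLS. Over all genes the test called 13.0%, with 9.77% higher in NLS and 3.18% lower, so higher calls outnumbered lower ones there too.

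**Figure D4:**
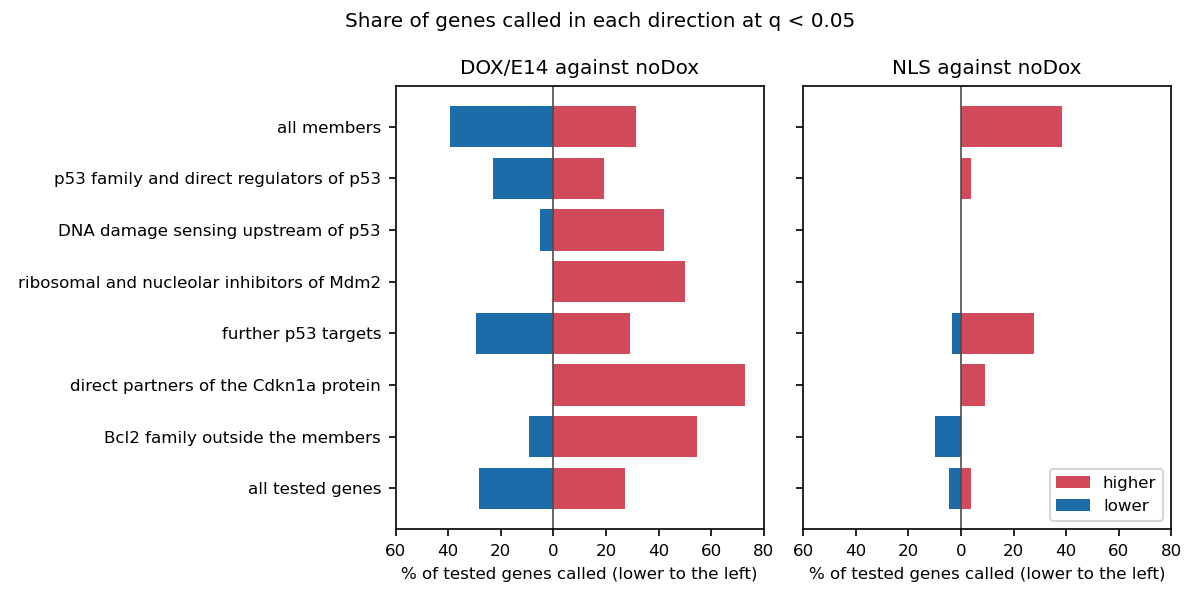
Percentage of tested genes that rose (red, to the right) and fell (blue, to the left) at q below 0.05 in DOX/E14 (left) and NLS (right), for the 40 members, 6 lists around p53 and all tested genes. The members and the further p53 targets stand at 38.5% and 27.9% risen in NLS, beside 3.97% of all genes.

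The direct partners of p21 rose in DOX/E14 in 8 of 11 cases, and 0 fell there, with 1 lower at an unadjusted p under 0.05. That is 72.7% risen, beside 27.2% of all tested genes. Ccnd1, which encodes cyclin D1, rose from 23.0 to 73.2 RPKM, Ccne1 of cyclin E1 from 41.5 to 109 and Pcna, the sliding clamp of replication, from 115 to 280.3. In NLS these 3 were at 34.9, 39.6 and 113 RPKM and did not pass, and each was lower in NLS than in DOX/E14 by the z test on the authors' statistics (adjusted p = 0.0463, 0.00433 and 0.00941). Ccnd2 alone rose in NLS, to 7.37 RPKM from 2.03 in noDox. That is 9.09% of the 11 called, near the 8.36% of all tested genes. In the Bcl2 family outside the members, 6 of 11 rose and 1 fell in DOX/E14 (63.6% called, beside 55.5% of all tested genes), and 0 rose and 1 fell of 10 in NLS, where 1 was higher at an unadjusted p under 0.05. Bok rose from 6.51 to 15.7 RPKM, Bcl2l11, which encodes the BH3-only protein Bim, from 13.99 to 27.9 and Bcl2 from 0.742 to 1.66 in DOX/E14. Bak1, the partner of Bax in the pore, fell in NLS to 18.2 RPKM, from 33.0 in noDox of that table.

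Exons of 8 members overlap those of another annotated gene, and the use of strand in counting was not given in the sources used here. The overlap was largest for Ddb2 with Acp2 on the opposite strand (23.8% of exonic bases) and for Gadd45a with E230016M11Rik on the opposite strand (19.1%). It was 12.2% for Bax with Gm45808 on the same strand, and between 3.32% and 8.04% for Cdkn1a, Plk3, Rrm2b, Tigar and Ephx1. Reads of these stretches cannot be assigned with certainty.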

How the data were processed

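RNA was measured in 8 libraries of mouse embryonic stem cells, grouped by the labels' titles. The tools were TopHat, Cuffdiff and bcl2fastq 2.17.1, with build mm10, per the submitters' processing notes. The roles and other versions of these tools, the annotation and the use of strand are not given in the sources used here. Gene levels are RPKM values as deposited, pooled by the authors to 1 value per group, per the file headers. The test statistic, a signed score, and each p-value and q-value were made by the authors with Cuffdiff, per the file headers. Read depth is unknown. Some items are left out of the account.

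The log2 folds were computed from RPKM with no pseudocount, and the SE is the absolute log2 fold over the absolute statistic. The z that the deposited p-values imply exceeded the statistic by a median factor of 1.42 over 24 members in DOX/E14 and 1.41 over 31 in NLS, so these SEs are wider than those behind the calls. The squared SEs of both folds were added for the NLS minus DOX/E14 difference, so noDox is counted although it cancels. Its p is two-sided and normal, and the test was tested on simulated data. Members and lists were chosen with earlier results of these data known. Every member is given, with up to 3 called genes of largest fold per list and table at 1 RPKM or more. The Y-linked gene, Brca1, Ulk1 and Pltp were chosen after their values were seen. Alternatives were other thresholds, a minimum fold, filters, pseudocounts, centring and SEs from p. Python 3.11.15, pandas 2.3.3, numpy 2.4.6, scipy 1.17.1 and matplotlib 3.10.9 were used. Promoters and microRNAs are from RefSeq GRCm38.p6, and 3′ UTRs and exons from GENCODE M21 on GRCm38.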

Additional observations from a re-analysis of the deposited data

Results flagged for a closer look

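For 9 members the log2 folds over noDox differed between NLS and DOX/E14 by the z test with Benjamini-Hochberg adjustment over 11905 genes, and in all 9 the NLS fold was the higher one. The NLS minus DOX/E14 difference was 4.06 for Ephx1, 2.15 for Mdm4 and 1.82 for Btg2. It was 1.67 for Rrm2b, 1.65 for Trp53inp1 and 1.50 for Eda2r, and 1.37 for Pmaip1, 1.31 for Tigar and 1.17 for Apaf1. Both folds use noDox, and each group has 1 value per gene, so the number of libraries that show a direction cannot be given.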

How the results depend on the processing

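Where calls also needed a log2 fold of 1 or more in size, 16 members were called in DOX/E14 (7 higher and 9 lower) and 7 in NLS, all 7 higher. At an adjusted p below 0.01, 5 members differed between NLS and DOX/E14, all 5 higher in NLS, and Pmaip1, Apaf1, Rrm2b and Tigar no longer passed. At q below 0.01 the counts were 24 and 11, and a filter at 1 RPKM left 27 and 15. With SEs from the deposited p, 13 members were higher in NLS than in DOX/E14, with centred folds 11 and with the filter 9, and 0 were lower under each. Shares over all genes are not given at these other settings. The counts there describe the members alone and do not set them apart from other genes. No called fold changed sign with 0.1 or 1 RPKM added, with centring or with the other noDox scaling. With 1 RPKM added, the DOX/E14 log2 fold shrank to 0.95 for Rprm, −1.05 for Cd82, −1.78 for Rrm2b and −3.31 for Ephx1. No paired analysis was possible because the columns hold 1 value per group and no replicate numbers. Leaving out a replicate was not run for the same reason. Depth is unknown, so no counting interval is given, and levels below about 1 RPKM (Fas, Dram1, Rprm) are the least certain.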
